A study of Mus musculus with 36 samples.

Results

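The 10 genes described here encode the enzymes that write, maintain, oxidise and remove DNA methylation, and they are Dnmt1, Dnmt3a, Dnmt3b, Uhrf1, Uhrf2, Hells, Tet1, Tet2, Tet3 and Tdg. They were chosen by symbol, with earlier results of these data known, and all 10 were found among the 12762 genes of the mRNA-seq table. The samples were 36 libraries of B3 cells, a line of mouse pre-B lymphocytes, transduced with MSCV retroviral vectors. Ikaros cells carried HA-Ikaros-ERt2-IRES-GFP, an HA-tagged wild type Ikaros fused to the ERt2 hormone-binding domain of the estrogen receptor. Control cells carried the vector with ERt2 and IRES-GFP but no Ikaros, and both lines were sorted for GFP. Each line was collected at 0, 2, 6, 12, 18 and 24 h after 4-hydroxytamoxifen (4-OHT) at 0.5 uM was given to both lines, giving 12 groups of 3 libraries. The labels list the drug for every library, whereas the methods describe the 0 h cells as untreated and obtained separately. Culture batches, 3 of them, fed each time, batches 1, 2 and 4 for 0 h and batches 1, 3 and 4 from 2 h onward, so 0 h differs from the rest in culture as well as in treatment.

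Ikzf1, the gene for Ikaros, was measured between 13.95 and 14.85 on the log2 scale in the 18 control libraries and between 19.63 and 20.93 in the 18 Ikaros libraries, at 0 h included. The ERt2 domain is meant to hold the fused protein inactive until the drug is given, which was not tested here. At 0 h 8.33% of all genes differed between the lines (limma, adjusted p under 0.05). All 10 listed B lineage markers were in the table, with 2 of 7 myeloid markers (Itgam and Lyz2), 1 of 7 T cell markers, 2 of 5 erythroid markers and 0 of 5 stromal markers. At 24 h the summed level of the B lineage markers, on the log2 scale, was 19.43 to 19.58 in control and 19.82 to 19.90 in Ikaros libraries, but its members split, with 7 higher (Rag1 by 5.19 and Blnk by 4.14) and 2 lower (Igll1 at -3.96 and Vpreb1 at -3.42). The summed level of the 2 myeloid markers was 7.28 to 8.74 in control and 9.22 to 9.67 in Ikaros libraries at 24 h, and 6.43 to 7.15 against 8.87 to 9.88 at 0 h. These 2 markers went opposite ways. Itgam was 4.91 to 5.47 in control and 9.18 to 9.63 in Ikaros libraries at 24 h, with a difference at 0 h of -0.78 (limma, adjusted p = 0.49). Lyz2 was 6.80 to 8.64 in control and 4.06 to 5.26 in Ikaros libraries at 24 h, and 6.17 to 6.64 against 8.82 to 9.86 at 0 h. The part of these markers in the results was not tested. Expression is given throughout as the deposited log2 value, in which a difference of 1 is a doubling if the base is 2, and a level is relative to a constant added to the table. The 3 values of a group are given in the order of their batch numbers. In bulk RNA, fewer cells of a kind and less RNA per cell cannot be told apart.

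DNA methylation in mammals sits mostly on cytosines of CpG pairs and is copied at replication, when Uhrf1 recognises the half-methylated site and recruits Dnmt1, the maintenance methyltransferase. Dnmt3a and Dnmt3b methylate new sites, and Hells (also called Lsh) is an SNF2-family remodeller that lets methylation reach packed chromatin. Tet enzymes oxidise methylcytosine in steps, and Tdg, a DNA glycosylase, cuts out the most oxidised forms so that repair restores an unmethylated cytosine. In B cell precursors Tet2 and Tet3 are known for demethylating enhancers, among them those of the immunoglobulin light chain genes.

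Of the 10 genes, Hells and Uhrf1 are shown with a promoter, because both act in maintenance, were lower in Ikaros cells at 24 h in the values below, and held a match to an E2F-type sequence. E2F factors control genes of the G1 to S transition. The sequences are the 250 bases before a RefSeq transcription start on GRCm38, read on the strand of the gene, with the E2F-type match in capitals. They lie at chr19:38930740-38930989 on the plus strand for Hells and chr17:56304063-56304312 on the plus strand for Uhrf1 (the second of its 2 listed starts). Of the Hells window 75 bases lie in an exon of the GENCODE annotation, which starts the gene earlier, and of the Uhrf1 window 0 do.
Hells: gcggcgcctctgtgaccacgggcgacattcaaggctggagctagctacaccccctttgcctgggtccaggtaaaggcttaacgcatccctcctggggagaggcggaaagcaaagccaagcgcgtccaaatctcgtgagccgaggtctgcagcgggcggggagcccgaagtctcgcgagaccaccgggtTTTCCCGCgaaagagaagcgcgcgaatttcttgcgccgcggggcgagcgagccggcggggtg
Uhrf1: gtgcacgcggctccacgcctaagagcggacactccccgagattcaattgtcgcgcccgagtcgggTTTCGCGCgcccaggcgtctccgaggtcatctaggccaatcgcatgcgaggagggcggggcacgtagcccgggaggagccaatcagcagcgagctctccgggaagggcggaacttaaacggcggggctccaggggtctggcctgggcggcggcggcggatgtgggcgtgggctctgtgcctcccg
The letters searched, on both strands, were TTTCCCGC, TTTCGCGC, TTTGGCGC and TTTGCCGC, and 1.86% of all 32851 windows of this length held one. The match began 62 bases before the start in Hells (TTTCCCGC) and 185 bases before it in Uhrf1 (TTTCGCGC), and another stood 219 bases before 1 of the 3 listed starts of Dnmt1, on the other strand (GCGCGAAA). Of the 15 windows listed for the 10 genes, these were the 3 that held one. The Dnmt1 window is not shown, since 166 of its bases lie in annotated exons, against 75 for Hells. The Hells match itself lies among those 75 bases, past the GENCODE start of the gene. The windows of Hells and Uhrf1 had 28 and 30 CpG pairs. An Ikaros core sequence, TGGGAA, stood in 1 window each of Dnmt1 (another start), Dnmt3a, Tet1 and Tet3 and in 21.6% of all windows. The E-box CACGTG stood in a window of Dnmt3a and in that of Tdg, 28 bases before the start, and in 6.02% of all windows. A match describes the letters of a window and not binding, and none of these sequences overlapped another. Hells and Uhrf1 were picked by their values and their matches, so the matches test no link to E2F. Each E2F-type sequence searched holds a CG pair, and the windows behind the 1.86% were not matched for CpG content. Dnmt3b and Tdg, also lower at 24 h, held no E2F-type match, while Dnmt1, which was not called at 24 h, held one.

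Hells was the member with the largest log2 difference at 24 h. It lies on chr19:38930915-38971051 of GRCm38, and its control values were 13.91, 13.97 and 14.18 at 0 h and 14.13, 14.21 and 14.10 at 24 h. In Ikaros cells it was 13.79, 13.83 and 14.02 at 0 h, 14.05, 13.90 and 14.14 at 6 h and 13.55, 13.81 and 13.48 at 12 h. At 18 h the Ikaros values were 12.80, 13.03 and 12.76, and at 24 h they were 11.80, 12.08 and 11.86. From 12 h on every Ikaros library was below every control library, and the control libraries stayed within 13.91 to 14.34 over the whole time course. For 12, 18 and 24 h, the log2 difference between Ikaros and control was -0.55 ± 0.10 (SE), -1.29 ± 0.10 and -2.23 ± 0.10 (limma, adjusted p = 5.7e-05, 2.4e-11 and 3.0e-16), the last being 4.71-fold lower. Within batches the 24 h difference ranged from -2.33 to -2.13. Its change from 0 h was -1.15 at 18 h and -2.10 at 24 h (limma, adjusted p = 2.7e-07 and 4.2e-12). The change at 12 h, -0.41 (limma, adjusted p = 0.028), was lost whichever batch was left out, with adjusted p between 0.0838 and 0.263. Here and below batch 3 was left out together with batch 2, which has its place at 0 h.

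Uhrf1, on chr17:56303321-56323486, was lower in Ikaros cells at 18 and 24 h. Its control values were 15.52, 15.46 and 15.76 at 0 h, 15.64, 15.69 and 15.28 at 18 h and 15.51, 15.54 and 15.41 at 24 h. Its Ikaros values were 15.42, 15.48 and 15.59 at 0 h, 15.41, 15.52 and 15.08 at 12 h, and 15.07, 15.28 and 15.20 at 18 h. At 24 h they were 14.32, 14.45 and 14.26, so that the drop between 18 and 24 h took all 3 Ikaros libraries well below the controls. The log2 difference was -0.35 ± 0.13 at 18 h and -1.14 ± 0.13 at 24 h (limma, adjusted p = 0.021 and 1.6e-08), a 2.21-fold lower level at 24 h, with -1.19 to -1.09 within batches. The call at 18 h was lost without batch 1 and without batch 3 (adjusted p = 0.276 and 0.174), while that at 24 h was kept whichever batch was left out. The change from 0 h at 24 h was -1.06 ± 0.18 (limma, adjusted p = 2.5e-05). Uhrf1 has a processed pseudogene, Gm5648, with 98.3% identity over 1590 bases, so reads could be shared with it.

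Dnmt1, on chr9:20907209-20959888, stood above control at 6 h and just below it at 24 h. At 6 h its values were 15.83, 16.05 and 15.90 in control and 16.65, 16.48 and 16.46 in Ikaros cells, all 3 Ikaros libraries being above the controls. The control mean at 6 h, 15.93, was also below the control means at 0 h (16.35) and 2 h (16.21), whereas the Ikaros mean was 16.53. Against the line's own 0 h, the change at 6 h was 0.03 in Ikaros and -0.42 in control cells (limma, adjusted p = 0.85 and 0.034). The log2 difference at 6 h was 0.60 ± 0.11 (limma, adjusted p = 0.00013), and its change from 0 h, 0.45 ± 0.16, did not pass the test (limma, adjusted p = 0.052, or 0.0244 with the culture batch as a block). At 24 h the values were 16.25, 16.15 and 15.96 in control and 15.89, 15.94 and 15.86 in Ikaros cells, so the order was turned round with a gap smaller than the spread of the controls. The difference there was -0.23 ± 0.11 and did not pass the test (limma, adjusted p = 0.082), although it did with the culture batch as a block (adjusted p = 0.0496) and without batch 4 (adjusted p = 0.035). The change of the difference at 24 h was -0.38 from 0 h and -0.34 from 2 h (limma, adjusted p = 0.052 and 0.079), and both passed with the block (adjusted p = 0.0279 and 0.0463). The F test over the 5 changes from 0 h called Dnmt1 (limma, adjusted p = 0.0030).

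Uhrf2, the paralog of Uhrf1, which does not replace it in maintenance, showed an early difference. It lies on chr19:30030513-30093722, and at 2 h it was 11.87, 11.83 and 12.01 in control and 12.40, 12.43 and 12.72 in Ikaros cells, with no overlap. The log2 difference was 0.62 ± 0.12 at 2 h (limma, adjusted p = 0.00044), with 0.54 to 0.71 within batches. At 0 h it had been 0.21 ± 0.12 (limma, adjusted p = 0.36), and the change from 0 h to 2 h, 0.41 ± 0.17, did not pass the test (adjusted p = 0.27). At 12 h the difference was 0.42 (limma, adjusted p = 0.0055, or 0.145 without batch 1), and at 24 h it was 0.13 ± 0.12 (adjusted p = 0.36). The difference thus became smaller from 2 h to 24 h, by -0.49 on the log2 scale (limma, adjusted p = 0.019), a call lost without batch 1 and without batch 3 (adjusted p = 0.0686 and 0.182). Whether Uhrf1 and Uhrf2 differed in their response was not tested.

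**Figure D1:**
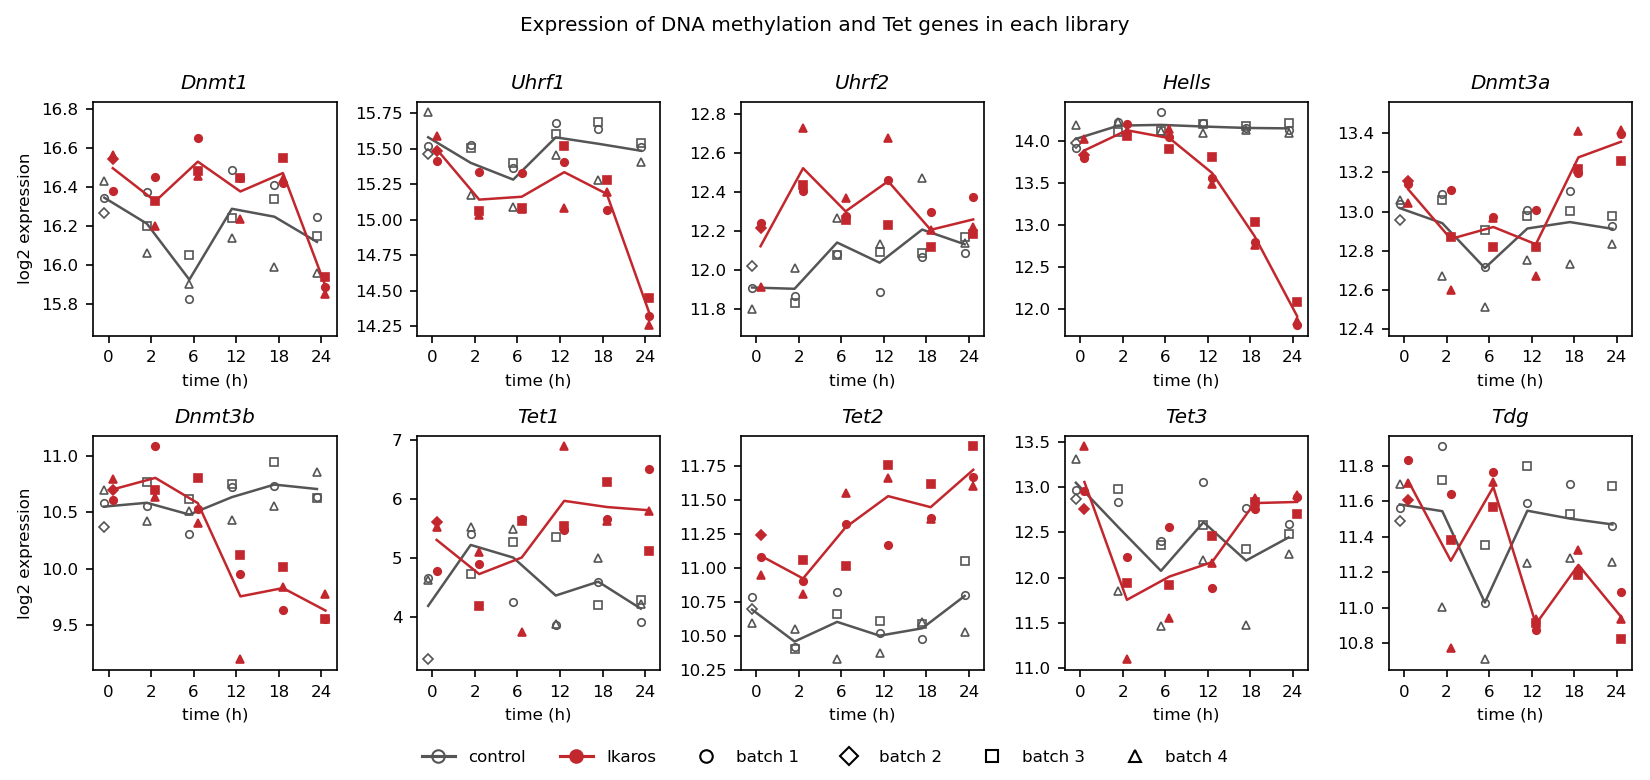
Log2 expression (y axis, a scale of its own in each panel) against time in hours (x axis, evenly spaced steps) for the 10 genes, with 1 point for each library, open grey for control and filled red for Ikaros cells, point shapes for culture batches, and lines through the means of 3 libraries. The Ikaros libraries lay below every control library of the same time from 12 h on for Hells and Dnmt3b and at 18 and 24 h for Uhrf1, reaching 11.80 to 12.08 for Hells and 14.26 to 14.45 for Uhrf1 at 24 h, and Tet2 lay above control at each of the 6 times. At 24 h the groups lay apart in 71% of all genes, and the share at earlier times is not given.

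The de novo methyltransferases lay on opposite sides of the controls at 24 h. Dnmt3b, on chr2:153649450-153687730, was 10.31, 10.62 and 10.51 in control and 10.53, 10.81 and 10.41 in Ikaros cells at 6 h, with the groups overlapping. At 12 h it was 10.72, 10.75 and 10.44 in control and 9.95, 10.12 and 9.20 in Ikaros cells, and at 24 h 10.63, 10.63 and 10.86 against 9.56, 9.56 and 9.78. The Ikaros libraries were all below the controls from 12 h on, with batch 4 the lowest of the 3 at 12 h and the highest at 24 h. For 12, 18 and 24 h, the log2 difference was -0.88, -0.92 and -1.08, each ± 0.18 (limma, adjusted p = 0.00018, 7.2e-05 and 7.0e-06), with -1.09 to -1.07 within batches at 24 h, where it was 2.11-fold lower. Its changes from 0 h were -1.03, -1.07 and -1.23 at 12, 18 and 24 h (limma, adjusted p = 0.0024, 0.0010 and 0.00020). At the same 12 h the Ikaros-control difference was -0.55 for Hells and -0.25 for Uhrf1, the latter not passing the test (limma, adjusted p = 0.12, or 0.0309 with the block and separate 0 h cultures). Dnmt3a, on chr12:3806007-3914443, was 12.92, 12.98 and 12.83 in control and 13.40, 13.26 and 13.42 in Ikaros cells at 24 h, and the groups did not overlap. The log2 difference was 0.33 ± 0.13 at 18 h and 0.45 ± 0.13 at 24 h (limma, adjusted p = 0.030 and 0.0040). That at 18 h was lost without batch 3 and without batch 4 (adjusted p = 0.126 and 0.203), the latter leaving 0.15. The difference at 24 h minus that at 0 h was 0.35 ± 0.18 and did not pass the test (limma, adjusted p = 0.12), while that minus 2 h was 0.53 (adjusted p = 0.020, lost without batch 1 or batch 3 at 0.0916 and 0.149). Both genes overlap an annotated antisense gene, Dnmt3aos and Dnmt3bos, and the strand setting of the counting was not given in the sources used here.

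Among the oxidising enzymes, Tet2 was the member whose groups were apart throughout. It lies on chr3:133463679-133545139, and its values were 10.79, 10.70 and 10.60 in control and 11.08, 11.24 and 10.95 in Ikaros cells at 0 h. At 12 h they were 10.52, 10.61 and 10.37 against 11.17, 11.76 and 11.66, and at 24 h 10.80, 11.05 and 10.53 against 11.67, 11.89 and 11.61. Every Ikaros library was above every control library at each of the 6 times, at 0 h included. At 24 h the groups lay apart, in either direction, in 71% of all genes. The log2 difference was 0.40 ± 0.15 at 0 h (limma, adjusted p = 0.12). For 6, 12, 18 and 24 h it was 0.70, 1.03, 0.89 and 0.93, each ± 0.15 (limma, adjusted p = 0.00077, 3.9e-06, 1.6e-05 and 7.8e-06), the last 1.90-fold higher. At 2 h it was 0.46 (limma, adjusted p = 0.034, but 0.237 without batch 1 and 0.301 without batch 3), and at 6 h the call was lost without batch 4 (0.0582). Measured from 0 h, the difference grew by 0.63 and 0.53 to 12 and 24 h (limma, adjusted p = 0.029 and 0.045), and both calls were lost whichever batch was left out, with adjusted p from 0.0743 to 0.204. The F test over the 5 changes did not call Tet2 (limma, adjusted p = 0.056). An antisense gene, Gm42567, overlaps it.

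Tet3, on chr6:83362373-83459084, varied widely between culture batches. Its control values were 12.84, 12.97 and 11.86 at 2 h, with batch 4 last, and its Ikaros values were 12.23, 11.94 and 11.10. At 18 h they were 12.77, 12.32 and 11.47 in control and 12.76, 12.83 and 12.88 in Ikaros cells, and at 24 h 12.59, 12.48 and 12.26 against 12.89, 12.71 and 12.91. Against the mean of the other batches, batch 4 was lower in control at all 5 later times, by -1.07 to -0.28, and in Ikaros cells at 3 of 5. In control it was also lower at all 5 for Dnmt1, Dnmt3a, Uhrf1 and Tdg, on average by -0.22, -0.28, -0.26 and -0.48. It was lower at 0 of 5 for Uhrf2 and at 1 to 4 for the other members. The log2 difference of Tet3 at 2 h was -0.80 ± 0.34 (limma, adjusted p = 0.10). It was called with the culture batch as a block (adjusted p = 0.0493) or without batch 4 (adjusted p = 0.0199). At 24 h it was 0.39 ± 0.34 (adjusted p = 0.32). From 2 h to 24 h the difference rose by 1.19 ± 0.48 (limma, adjusted p = 0.042), a call lost without batch 1 and without batch 3 (0.0949 and 0.249). Tet1, on chr10:62804570-62908996, had a mean within the lowest 0.69% of the genes in the table. It was 3.92, 4.29 and 4.22 in control and 6.50, 5.12 and 5.80 in Ikaros cells at 24 h, a difference of 1.67 ± 0.51 (limma, adjusted p = 0.0062, but 0.147 without batch 1). At 12 h it was 1.60 (limma, adjusted p = 0.012) and at 18 h 1.26 (adjusted p = 0.036), and at 0 h it was 1.12 ± 0.51 (adjusted p = 0.23). The call at 12 h was lost without batch 1 and without batch 4 (0.0812 and 0.228), and the one at 18 h without batch 1 and without batch 3 (0.111 and 0.235). From 0 h to 24 h the difference changed by 0.55 ± 0.72 (limma, adjusted p = 0.56), and from 2 h by 2.16 ± 0.72 (adjusted p = 0.016, or 0.187 without batch 1).

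Tdg, on chr10:82629828-82650799, lay above the controls at 6 h and below them at 12 and 24 h. Against the line's own 0 h, from separate cultures, the change at 6 h was -0.03 in Ikaros and -0.55 in control cells (limma, adjusted p = 0.92 and 0.087). At 12 h these changes were -0.81 and -0.04 (limma, adjusted p = 0.0018 and 0.997). At 6 h it was 11.03, 11.35 and 10.71 in control and 11.77, 11.57 and 11.71 in Ikaros cells, with the control mean below that of the other times. At 12 h it was 11.59, 11.80 and 11.25 against 10.87, 10.91 and 10.94, and at 24 h 11.46, 11.69 and 11.26 against 11.09, 10.83 and 10.94. The groups did not overlap at these 3 times, with the Ikaros libraries above at 6 h and below at 12 and 24 h. The log2 differences at 6, 12 and 24 h were 0.65, -0.64 and -0.52, each ± 0.20 (limma, adjusted p = 0.013, 0.011 and 0.027). The first was lost without batch 1 (adjusted p = 0.137), and the others without batch 1 (0.107 and 0.0848) or batch 3 (0.195 and 0.331). The change from 0 h was -0.77 ± 0.28 at 12 h (limma, adjusted p = 0.042, lost without batch 1 or batch 3 at 0.265 and 0.346) and -0.65 at 24 h (0.061, or 0.0299 with the culture batch as a block). Batch 4 was lower than the mean of the others in control at all 5 later times, by -0.48 on average, and its control value was the lowest at each of the 3 times named. Tdg has 3 processed pseudogenes that share from 1193 to 2968 bases with it at 98.7% identity or more, Tdg-ps, Gm9855 and Gm5597, and it overlaps Glt8d2 on the other strand, so its value is uncertain.

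**Figure D2:**
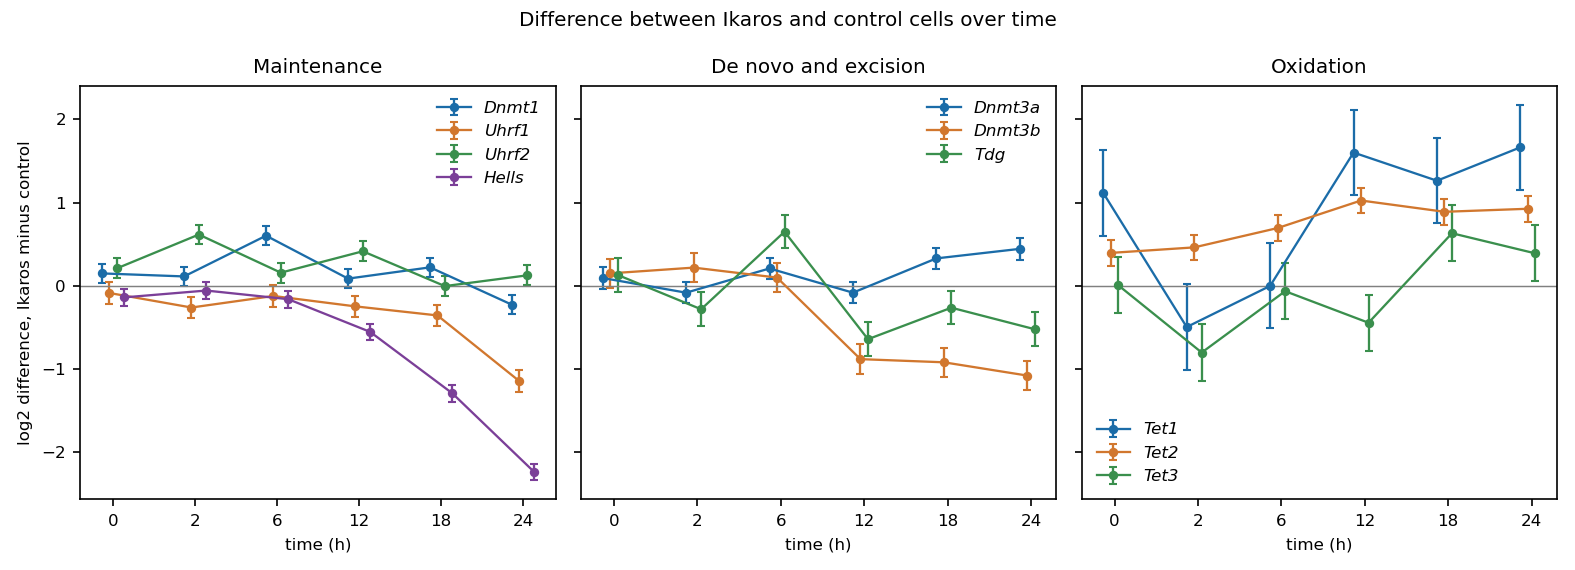
Log2 difference between Ikaros and control cells (y axis) against time in hours (x axis, evenly spaced steps), with points for the fitted difference of 3 against 3 libraries and bars of 1 SE, for the maintenance genes (left), the de novo methyltransferases and Tdg (middle) and the Tet genes (right). Hells reached -2.23, Uhrf1 -1.14 and Dnmt3b -1.08 at 24 h, while Tet2 stood at 0.93, and Tet1 had the widest bars (0.51).

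Set against the rest of the table, the share of members that passed the test was close to that of all genes at most times. Between Ikaros and control, 0 of 10 were called by limma at 0 h (8.33% of all genes; 2 members, Tet1 and Tet2, at an unadjusted p under 0.05), 2 at 2 h (19.1%), 3 at 6 h (37.3%) and 6 at 12 h (45.8%). At 18 h 6 were called against 58.2% of all genes, 3 higher (29%) and 3 lower (29.2%). At 24 h 7 were called against 62.9%, with Dnmt3a, Tet1 and Tet2 higher (31% of all genes) and Dnmt3b, Uhrf1, Hells and Tdg lower (31.9%). In all 10 the 3 libraries of one line lay beyond the 3 of the other at 24 h, as they did in 71% of all genes. That share is given only for 24 h. A lack of overlap at an earlier time is therefore given without the share of all genes beside it, and is a description only. The median difference at 24 h was -0.05 over the members and -0.01 over all genes, since members moved both ways.

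For the change of the difference from 0 h, the count was 0 at 2 h (3.1% of all genes) and 0 at 6 h (15.9%; 1, Dnmt1, with the culture batch as a block, which called 2569 of all genes). At 12 h 4 members were called (29.7%), then 2 at 18 h (43%), and 4 at 24 h (48.4%). Of the 4 at 24 h, Tet2 changed upward (24.2%) and Dnmt3b, Uhrf1 and Hells downward (24.2%). At an unadjusted p under 0.05, 2 members (Uhrf2 and Tet1) passed at 2 h and 1 (Dnmt1) at 6 h in limma. The F test over the 5 changes called 7 of 10, all but Dnmt3a, Tet2 and Tet3 (59.8% of all genes). With the culture batch as a block it called 9 members and 8418 of all 12762 genes, with Dnmt3a, Tet2 and Tet3 among them (adjusted p = 0.0261, 0.0484 and 0.0355) but not Tet1 (0.0584). The change from 2 h to 24 h, which leaves the separate 0 h cultures out, also called 7 (47.3%), all but Dnmt1, Tet2 and Tdg. Over time within 1 line, the F test called 9 of 10 in Ikaros cells, all but Tet1 (76.4%), and 0 of 10 in control cells (1.69%; 1, Dnmt1, at an unadjusted p under 0.05).

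**Figure D3:**
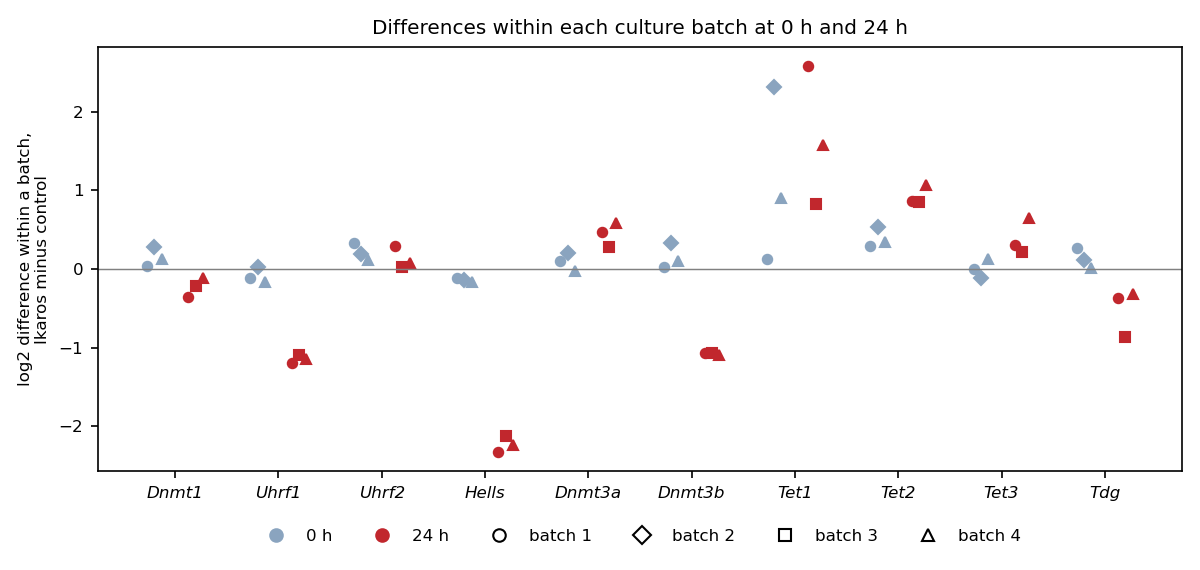
Log2 difference between the Ikaros and the control library of the same culture batch (y axis) for each of the 10 genes (x axis) at 0 h (blue) and 24 h (red), 1 point for each of 3 batches, with the shape giving the batch. At 24 h all 3 batches lay on the same side of zero for each gene, from -2.33 to -2.13 for Hells and from 0.83 to 2.58 for Tet1.

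Genes related to these enzymes were read at 24 h from lists chosen by function, with earlier results of these data known. The counts of these lists are therefore descriptions. Beside the counts of each list below, 31% of all genes were called higher and 31.9% lower at 24 h. Of 11 genes listed as methyltransferase and remodeller partners, 9 were measured, and 7 were lower and 2 higher, with a median difference of -0.52. The name of this list is loose, and it takes in Trdmt1, which is not a partner of the DNA methyltransferases or of Hells. Cdca7, which recruits Hells to chromatin, differed by -1.59 ± 0.08 and Trdmt1 by -1.37 ± 0.15 (limma, adjusted p = 6.8e-15 and 8.8e-09), whereas Zbtb24, an activator of Cdca7, was higher by 1.01 and Ehmt2 by 0.33 (adjusted p = 9.5e-07 and 0.018). Dnmt3l and Dppa3 were not measured here. Cdca7 and Hells were thus both lower.

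Of the 10 readers of methylated CpG, 7 were higher and 1 lower, with a median of 0.76. Zbtb4 was higher by 2.52 ± 0.21 and Mbd2, which ties methylated DNA to the NuRD complex, by 1.70 ± 0.12 (limma, adjusted p = 6.4e-11 and 1.9e-12). Mbd3, the NuRD subunit that lacks binding to methylated CpG, was lower by a log2 difference of -0.27 (adjusted p = 0.0074), and Mbd4 was at 0.20 (adjusted p = 0.20). Of 14 listed genes of active demethylation and base repair, 11 were measured, 9 higher and 2 lower, with a median of 0.90. Gadd45b, a stress-induced gene, was higher by 5.23 ± 0.22 and Neil1, a DNA glycosylase, by 4.97 ± 0.17 (limma, adjusted p = 1.3e-16 and 3.6e-18). Gadd45b was already higher by 4.46 ± 0.22 at 0 h (limma, adjusted p = 1.1e-13), and its difference changed by 0.77 from 0 h to 24 h, while that of Neil1 changed by 5.11 (adjusted p = 0.046 and 8.4e-15). Apex1, the main endonuclease for abasic sites, was lower at -1.31 ± 0.15 and Lig3 at -0.75 (adjusted p = 1.9e-08 and 0.00020).

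Of 16 genes of methyl donor and cofactor supply, 14 were measured, 4 higher and 7 lower, with a median of -0.25. Mat2a, which makes the methyl donor S-adenosylmethionine, was lower at -1.42 ± 0.19 (limma, adjusted p = 3.0e-07), and is named here after its values were seen. Isocitrate dehydrogenases make the Tet cofactor alpha-ketoglutarate, and their genes went both ways. Idh3a, a subunit of a mitochondrial one, was lower at -1.70 (limma, adjusted p = 4.4e-14), whereas Idh1 was higher by 2.27 ± 0.27 (adjusted p = 4.5e-08). D2hgdh was higher by 0.65 (adjusted p = 0.00012). All 27 S phase genes were measured, and 25 were lower, 0 higher, with a median of -0.83. They ranged from Tyms at -2.97 and Ccne2 at -1.78 (limma, adjusted p = 4.3e-15 and 1.5e-11) to Mcm7 at -0.17 and Cdt1 at -0.14 (adjusted p = 0.18 and 0.27). Of 12 G2/M genes 7 were lower and 1 higher, Ccnb2, and with the culture batch as a block 3 were higher. For the change of the difference from 0 h to 24 h, the higher and lower counts were 2 and 6 for partners, 7 and 0 for readers, 7 and 2 for demethylation and repair genes, 3 and 5 for donor and cofactor supply, 0 and 21 for S phase and 1 and 6 for G2/M genes. Of all genes, 24.2% were called with an upward and 24.2% with a downward change. At 24 h most S phase genes were lower, as Hells and Uhrf1 were. At 6, 12 and 18 h the S phase median difference was 0.20, -0.11 and -0.31. At those times the difference was -0.16, -0.55 and -1.29 for Hells and -0.12, -0.25 and -0.35 for Uhrf1. The part of the S phase genes in the results for Hells and Uhrf1 was not tested.

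**Figure D4:**
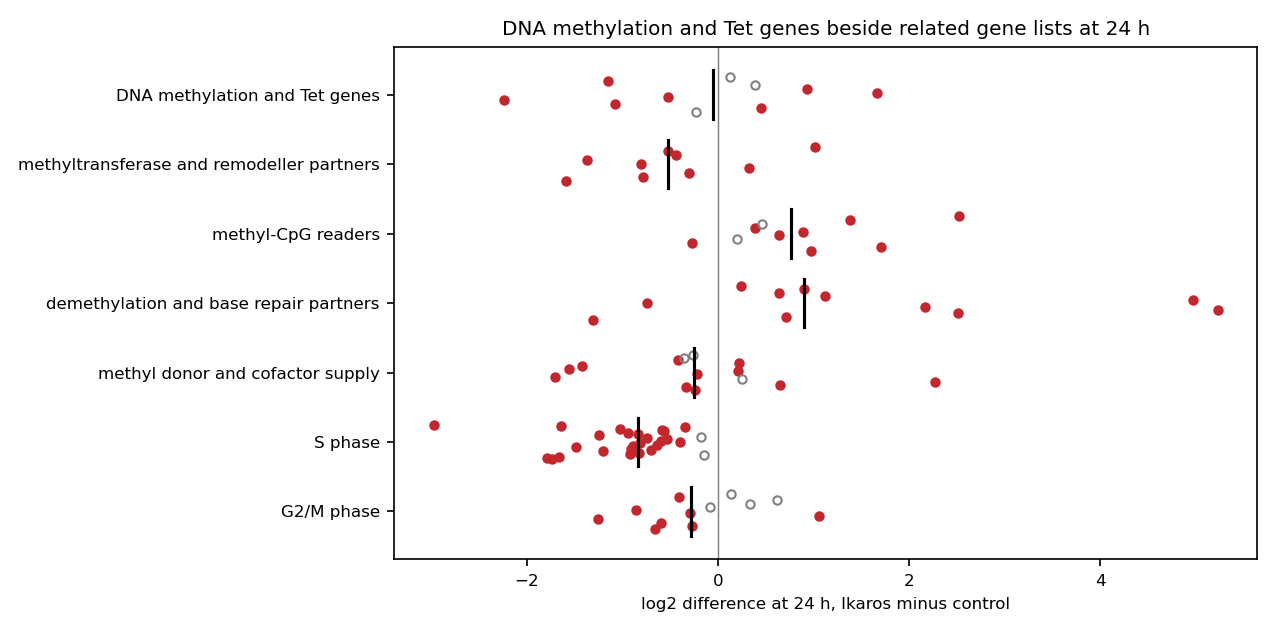
Log2 difference between Ikaros and control cells at 24 h (x axis) for the 10 genes and for 6 lists of related genes (y axis), 1 point a gene, filled red where it passed the test and open grey where it did not, with a bar at the median. Readers and demethylation and repair genes had medians of 0.76 and 0.90, and S phase genes and methyltransferase partners -0.83 and -0.52. The lists were chosen with earlier results of these data known.

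The genes with the most alike pattern were found for each member as the highest Pearson correlation over the 12 group means, which share libraries, batches and time, so these are descriptions. For Hells they were Rpn1 and Ogfod3 (both r = 0.992). For Uhrf1 they were Ska3, Nup133 and Dtl (0.979, 0.974 and 0.969), and for Dnmt1 Cep55, Rpa1 and Arhgap19 (0.939, 0.908 and 0.897). Dnmt3b was nearest to Eif5, 2310003H01Rik and Rcn2 (0.979, 0.976 and 0.974) and Dnmt3a to 2310036O22Rik, Usp33 and Smcr8 (0.980, 0.978 and 0.972). Tet2 was nearest to Ctsb, Pianp and Atg9a (0.981, 0.981 and 0.979), and Tet3 to Pygo2, Mll2 and 0610030E20Rik (0.949, 0.945 and 0.936). The nearest genes were less close for Tdg (Uba2, Ppp3r1 and Ltn1, 0.927, 0.912 and 0.904), Uhrf2 (Esd, Ager and Zcwpw1, 0.948, 0.907 and 0.906) and Tet1 (Rras, 4930550C14Rik and Accs, 0.930, 0.903 and 0.903).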

How the data were processed

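The deposited values are log2 expression. Per the methods, the authors aligned paired fragments to mm10 with TopHat2, assigned them to genes with HTSeq, normalized with cqn for GC content and length and adjusted library preparation with ComBat. Versions, strand setting and log base are not given in the sources used here. No counts were used, so depth is unknown and precision is set by 3 libraries per group. Batch adjustment before deposition may make the standard errors too small.

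A limma 3.58.1 model (R 4.3.3) with 12 group means was fitted to all 12762 genes, with two-sided Benjamini-Hochberg adjusted p-values over all genes and a threshold of 0.05. The fit was checked on simulated data. The labels number the culture batches, which pairs the libraries of both lines. Deviations from group means correlated within pairs by -0.062 to 0.507 (median 0.128, 12 of 18 pairs above 0.1). The batch block was an alternative.

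All members are named, with up to 3 alike genes each, and the 2 highest and 2 lowest of each list may be, except a few that are not reported here. Members and lists were chosen with earlier results of these data known. Positions are from GENCODE M21 (GRCm38), promoters from RefSeq (GRCm38), and copies from BLAST at 95% identity over at least 200 bases. Of the 10 listed germline genes that DNA methylation silences, 0 were in the table, so they gave no result.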

Additional observations from a re-analysis of the deposited data

Results flagged for a closer look

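For 7 members the Ikaros-control difference was not the same at all times, by the F test over the 5 changes from 0 h (limma, adjusted p under 0.05), which 59.8% of all genes also passed. The change from 0 h to 24 h of the log2 difference was -2.10 for Hells, -1.23 for Dnmt3b, -1.06 for Uhrf1, -0.65 for Tdg, -0.38 for Dnmt1, -0.084 for Uhrf2 and 0.55 for Tet1. For Dnmt1, Uhrf2, Tet1 and Tdg this single change did not pass the test on its own. Uhrf2 and Tet1 were called by the F test with adjusted p = 0.027 and 0.045.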

How the results depend on the processing

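No member's difference that passed the test, as reported or under an alternative run, had the opposite direction in the other. Differences that passed in neither were not compared for direction. Tet1 at 6 h, which did not pass, ranged from -1.75 to 1.4 within batches. Fitting only the groups compared called 0 members (2 as reported) at 2 h, 1 (3) at 6 h, 2 (4) for the change from 0 h at 12 h and 7 (4) for that at 24 h. For the change at 6 h, 1 member was called (0 as reported) with a replicate block by culture batch, with that block and separate 0 h cultures, after a filter at the 25th percentile of mean expression, after quantile normalization and with trended, robust variances. The block with separate 0 h cultures called 4 members at 2 h. The replicate block by culture batch alone changed no other member's call than those given beside the results. With separate 0 h cultures it also called Uhrf1 at 2 and 12 h (adjusted p = 0.0446 and 0.0309) and Dnmt1 and Tet3 at 18 h (0.0273 and 0.0301). Leaving out 1 replicate gave 1 to 4 members at 2 h, 3 to 6 at 12 h, 3 to 6 at 18 h, 1 to 2 for the change at 12 h, 2 to 4 for that at 18 h, 3 to 6 for the F test over changes, 3 to 7 for the change from 2 h and 5 to 8 for the F test in Ikaros cells. The count over all genes at 0 h, 1063, was 701 after the filter and 318 without replicate 2, and that at 2 h, 2432, was 860 with only the groups compared and 804 without replicate 2. At 6 h 4759 became 2150 with only the groups compared and 2640 without replicate 1, and at 12 h 5850 became 3769 without replicate 2. For the changes from 0 h, without replicate 2, 396 became 55 at 2 h, 2024 became 584 at 6 h, 3795 became 1548 at 12 h, 5492 became 3077 at 18 h and 6180 became 4056 at 24 h, and the change at 2 h called 54 without replicate 1, 661 with the block and separate 0 h cultures and 257 with only the groups compared. The F test over changes called 4064 (7626) and the change from 2 h 3775 (6037) without replicate 2. The F test in control cells called 216 genes, but 763 with the block, 136 after the filter, 3 with only the groups compared and 0 to 86 without 1 replicate. Replicate 2 is batch 2 at 0 h and batch 3 later. A smaller number of libraries leaves fewer residual degrees of freedom, and other causes were not tested. The filter removed Tet1, the F test over changes already uses all groups, and the F tests within a line could not be fitted with separate 0 h blocks. In an alternative chosen after seeing the data, each list's lower and higher counts at 24 h without 1 replicate were 19 to 25 and 0 for S phase genes, 5 to 6 and 1 to 2 for partners, 0 to 1 and 6 to 7 for readers, 1 to 2 and 8 to 9 for demethylation genes and 4 to 6 and 2 to 5 for donor supply.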
